A study of Ovis aries with 18 samples.

Results

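The genes described here encode the extracellular matrix and the enzymes that shape it: collagens, laminins, nidogens and agrin, elastin with the fibrillins, fibulins and other elastic fibre proteins, matrix proteoglycans and glycoproteins, the matrix proteases of the MMP and ADAMTS families with their TIMP inhibitors, and the enzymes that modify collagen. They were chosen by gene symbol among the autosomal genes of the SNP table, with HSPG2 left out. The symbols matched 672 SNPs in 77 genes, of 24355 SNPs in 5810 genes in the whole table. The products of COL4A3BP, a ceramide transfer protein, and MFAP1, a splicing factor, are not matrix proteins. Both matched by name, were kept in the counts and are described apart.

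Perirenal adipose tissue (PRAT) was taken from 18 untreated wild type Merino fetuses at day 132 after conception, 16 labelled female and 2 male, and the RNA of each fetus was sequenced as 1 sample. All fetuses belong to a single condition, so the comparisons are between the alleles of a SNP within an animal and between animals. The question was at which SNPs heterozygous fetuses carried unequal numbers of reads of the reference and the alternate allele, which is called allelic imbalance (AI). Reads counted over all SNPs ran from 2970824 in RS902 to 5334585 in RS917.

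The tissue label was compared with marker genes, using reads per 1000000 reads of the animal (RPM), averaged over the SNP positions of the gene. Of the brown fat markers, 4 of 5 had SNPs, and their summed level had a median of 2652, between 1538 in RS953 and 4176 in RS905. UCP1, the uncoupling protein of brown fat, made up most of it with a median of 2474. ADIPOQ, the adipocyte hormone adiponectin, had a median of 2488. The only kidney or adrenal marker with SNPs was STAR, with a median of 11.7, and the only skeletal muscle marker was DES, with a median of 21.3. RS929 is labelled female but was called heterozygous at 29.1% of the SNPs on chromosome X, within the values of the males, RS903 with 32.4% and RS918 with 25.4%, whereas every other female had at least 54.1%. The matrix genes are autosomal, and the counts below are also given without RS929.

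Collagens are chains wound into triple helices. Fibrillar collagens give connective tissue its tensile strength, collagen type IV and the laminins build the basement membrane that surrounds each adipocyte and each capillary, and elastin on a scaffold of fibrillin lets tissue recoil. In fat this matrix is laid down by stromal cells, endothelial cells and the adipocytes themselves, and it is remodelled by metalloproteases as the depot grows.

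At 669 of the 672 SNPs at least 1 fetus was called heterozygous. The reference share is the number of reference reads divided by the reads of both alleles in heterozygous animals, and a SNP was said to show AI where the likelihood ratio test on reads summed over these animals gave a Benjamini-Hochberg adjusted p under 0.05 over all SNPs of the table. This held at 319 matrix SNPs, 47.7% of those tested, beside a background of 38% over the whole table. More reads of the reference than of the alternate allele were found at 267 SNPs (background 28.9% of all tested SNPs) and the opposite at 52 (background 9.01%), so that 83.7% of the matrix SNPs with AI favoured the reference allele, against 76.3% over the whole table. The direction depends on the null share: the median share of all tested SNPs was 0.519, and tested against it, 274 matrix SNPs were called, 163 above and 111 below, which puts 59.5% above, beside 54.9% over the whole table. At least 1 SNP with AI was found in 59 of the 77 genes, 76.6%, where the background was 58.5%. The matrix genes had a median of 6 SNPs, and the genes of the whole table a median of 3, which gives a matrix gene more chances of a call.

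Reads of a single animal are not independent of each other, so AI was also tested with the animals as replicates, by a moderated quasi-binomial F test. It called 213 SNPs (background 24.5%) in 46 genes (background 41.4%). Since it divides the summed-read statistic by a dispersion of at least 1, its calls are by construction among those on summed reads. Whether the heterozygous fetuses differed from each other in reference share was tested with a Pearson chi-square test against counting error alone, so that differing means a spread beyond counting error, which was common in the table: the median dispersion, where 1 is counting error, was 1.41 over all SNPs and 1.69 at the matrix SNPs. They differed at 186 of 666 SNPs, 27.9%, beside a background of 15.4%, and these SNPs lay in 48 genes. At 69 of the 186 no AI was called, so the animals differed around a summed share that was not distinguishable from equal. Without RS929 the counts were 320 SNPs with AI on summed reads in 59 genes, 208 with animals as replicates, and 179 SNPs that differed between animals.

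The higher share of SNPs with AI than in the whole table went with read depth. Within depth quartiles the matrix SNPs lay on both sides of the whole table. The mean depth per heterozygous animal had a median of 133 reads at the matrix SNPs and 65.0 at all tested SNPs. In the lowest depth quartile of all SNPs, up to 40.3 reads, 14% of the matrix SNPs showed AI against 23.9% of all SNPs. The deepest quartile, from 123 reads, held 353 matrix SNPs, of which 63.7% showed AI against 59.5% of all SNPs there. In the quartiles between them, 28.3% of the matrix SNPs showed AI against 29.7%, and 41.2% against 38.7%. Depth still varied within the deepest quartile. Differences between animals were more frequent in each quartile, with 12.8% against 8.07% at the lowest depth, then 17.2% against 10.6%, 22.9% against 13.6%, and 36.3% against 29.1% at the highest. SNPs of a gene share animals and haplotypes, and these shares carry no test.

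Most departures were small, as over the whole table. The median reference share was 0.520 at the matrix SNPs and 0.519 at all SNPs, and 249 of the 319 SNPs with AI, 78.1%, lay within 0.1 of an equal share, against 68.1% over the whole table. More than 0.2 away lay 12.2%, against 12.9%. The median distance of the SNPs with AI from 0.5 was 0.0565, against 0.0760 over the whole table. After sampling each animal down to 50 reads, 28 of the 77 genes ranked among the first 1500 by AI, 36.4% against 25.9% of all genes. With a median of 6 SNPs against 3, a matrix gene also had more chances of a high rank, and the 2 percentages were not matched for this. Among the first 100 were ELN (rank 11), CLEC3B (13), DCN (36), COL4A2 (68), MMP14 (78) and TNXB (84). In each of them the SNP with the largest statistic was heterozygous in 15 or more fetuses. The limit of 50 reads held per animal, so SNPs with many heterozygous fetuses could keep more reads.

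The large departures mostly lay at SNPs whose genotype calls were unusual, as they did over the whole table. A reference share over 0.8 or under 0.2 was found at 24 SNPs with AI. At 20 of these, either 15 or more of the 18 fetuses were called heterozygous, or fetuses called homozygous carried a mean of at least 5% of reads of the other allele. Over the whole table this held at 372 of 549 such SNPs, 67.8%. The latter measure was chosen after the values were seen. Of all tested matrix SNPs, 56 were heterozygous in 15 or more fetuses, 8.37% against 9.94% over the whole table, and 25% of them were transversions, against 11.9% of matrix SNPs heterozygous in 5 to 14 fetuses and 21.6% of all SNPs of the table. Reads of the other allele at that level were found at 22 of the 648 SNPs with homozygous fetuses, 3.40% against 2.15%, in 10 genes. At the 574 matrix SNPs that were heterozygous in 5 to 14 fetuses, held less than 5% of the other allele in homozygotes and had no other SNP within 5 bp, 247 showed AI, 43.0% against 32.9% of such SNPs over the whole table. The median depth of these 574 SNPs was 153 reads, against 65.0 at such SNPs over the whole table, and the 2 percentages were not matched for depth. Of the 247 with AI, 7 lay more than 0.2 from an equal share, 2.83%, near the 3.83% over the whole table. At 3 further SNPs no fetus was called heterozygous and all 18 were called homozygous for the alternate allele. These were C84237954G and G84237958T in COL4A1, with 0.450% and 0.742% reference reads, and G50839194T in LAMB2, with 1.86%. Each change is written as reference base, position on Oar v3.1 and alternate base.

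**Figure D1:**
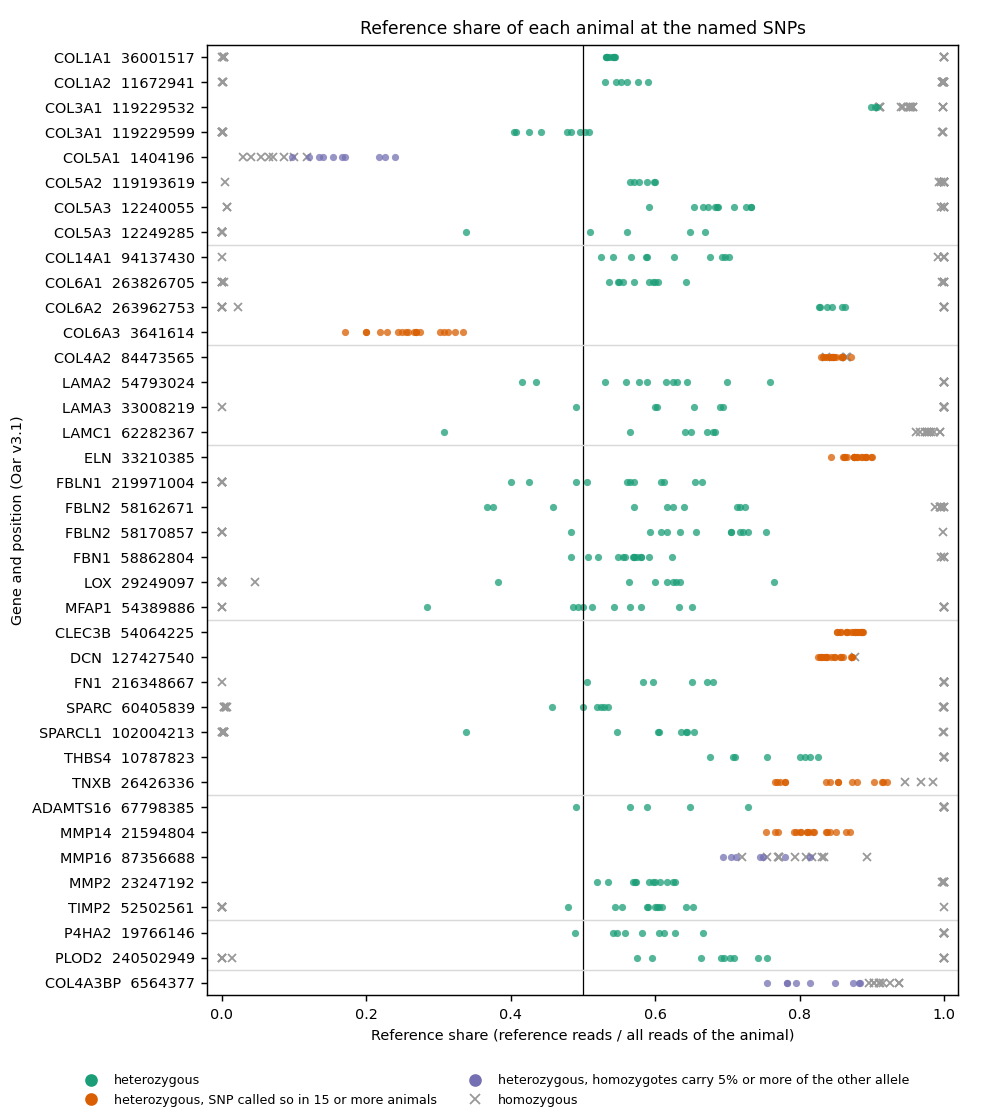
Reference share (horizontal axis, reference reads over all reads of the animal) of each of the 18 fetuses at the 38 named SNPs (vertical axis, gene and position), with heterozygous animals as dots and homozygous animals as grey crosses. At CLEC3B all 18 fetuses lie between 0.852 and 0.888, whereas at LAMA2 heterozygous animals run from 0.415 to 0.759 and the crosses sit at the edge.

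The fibrillar collagens COL1A1, COL1A2, COL3A1, COL5A1, COL5A2 and COL5A3 had 89 SNPs. AI was called at 54 of them, 60.7% beside a background of 38%. Their median depth was 218 reads, and in the deepest quartile of all SNPs 59.5% showed AI. Against the median share as null 41 were called, 46.1% beside 34.6% over the whole table, with 25 above it and 16 below. With animals as replicates 40 were called (background 24.5%). The animals differed at 26, 29.2% beside 15.4% over the whole table and 29.1% in its deepest quartile. COL1A1 encodes the more abundant chain of collagen type I, the main fibre of connective tissue. At T36001517A on chromosome 11, a synonymous SNP, the 9 heterozygous fetuses ran from 0.532 over a median of 0.537 to 0.545. All 9 lay above 0.5 in a narrow band. The mean was 0.538 ± 0.00532 (SD, n = 9, moderated quasi-binomial F test, Benjamini-Hochberg adjusted p = 1.17e-07, exact sign-flip permutation test over animals, two-sided, p = 0.00391, the smallest it can give). COL1A2 encodes the other chain of collagen type I. At T11672941G on chromosome 4 its 6 heterozygous fetuses ran from 0.531 over 0.557 to 0.590, all above 0.5, with a mean of 0.559 ± 0.0212 (SD, n = 6, adjusted p = 1.80e-05, F test, exact permutation p = 0.0312). All 5 COL1A1 SNPs and 5 of 6 COL1A2 SNPs showed AI, each with the reference allele higher than an equal share. The lowest COL1A1 share, 0.518, lay just below the median of all tested SNPs, 0.519.

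COL3A1 encodes collagen type III, which runs with type I in elastic tissue. It had AI at 9 of 13 SNPs, 5 with the reference and 4 with the alternate allele higher, and the animals differed at 9. At C119229599T in its 3' UTR the 9 heterozygous fetuses ran from 0.405 over 0.478 to 0.509, and 7 of 9 lay below 0.5. The mean was 0.461 ± 0.0415 (SD, n = 9, adjusted p = 0.00742, F test, exact permutation p = 0.0234), and the spread between animals exceeded counting error (Pearson chi-square test, adjusted p = 4.51e-20). T119229532A, also in the 3' UTR, lay at 0.903 ± 0.00417 in 3 heterozygous fetuses (SD, adjusted p = 3.65e-14, F test, exact permutation p = 0.25, the smallest it can give). There the 15 homozygous fetuses carried between 0.0611% and 8.99% of the other allele, so the genotype groups lay close together.

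The chains of collagen type V start and limit the growth of type I fibres. COL5A3 had AI at 14 of 17 SNPs, and the animals differed at 13. At C12240055T on chromosome 5 the 11 heterozygous fetuses ran from 0.592 over 0.685 to 0.733. Every animal lay above 0.5, with a mean of 0.686 ± 0.0412 (SD, n = 11, adjusted p = 1.53e-10, F test, exact permutation p = 9.77e-04). At T12249285C in the same gene the 5 heterozygous fetuses lay on both sides of 0.5, from 0.339 over 0.562 to 0.670 (Pearson chi-square test, adjusted p = 6.73e-10). The mean there was 0.546 ± 0.133 (SD, n = 5, adjusted p = 0.366, F test, exact permutation p = 0.438). COL5A2 showed a smaller departure at C119193619T, from 0.565 over 0.583 to 0.60 in 6 fetuses, with a mean of 0.583 ± 0.0146 (SD, n = 6, adjusted p = 1.90e-04, F test, exact permutation p = 0.0312). In COL5A1 the alternate allele was higher at the missense SNP C1404196G, where 10 heterozygous fetuses ran from 0.0972 over 0.160 to 0.239 (adjusted p = 3.57e-11, F test). The 8 homozygous fetuses carried 2.90% to 11.8% of the other allele at this SNP, so the genotype groups overlapped. A SNP of COL5A1 picked after its values were seen, G1425781A in a splice region, ran from 0.554 to 0.847 in 5 fetuses, while its homozygotes carried 0.121% of the other allele.

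The other collagens had AI at 31 of 87 SNPs, 35.6%, which is close to the background of 38%. The animals differed at 15, 17.2% beside 15.4%. This class includes collagen type VI, whose beaded filaments lie around adipocytes. In COL6A1 at C263826705T the 10 heterozygous fetuses ran from 0.536 over 0.582 to 0.643, all above 0.5, with a mean of 0.580 ± 0.0331 (SD, n = 10, adjusted p = 1.08e-05, F test, exact permutation p = 0.00195). COL6A2 had the most uneven SNP of the class outside the often heterozygous ones. At C263962753T its 6 heterozygous fetuses ran from 0.827 over 0.842 to 0.863, with a mean of 0.843 ± 0.0151 (SD, n = 6, adjusted p = 1.32e-11, F test, exact permutation p = 0.0312), and homozygotes carried 0.181% of the other allele. At G263968708A, 5955 bp away and chosen after its values were seen, the same 6 fetuses lay between 0.424 and 0.554, below their shares here in each animal.

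COL6A3 had 33 SNPs, the most of any gene in the set, and 14 showed AI. At A3641614T all 18 fetuses were called heterozygous, and all lay below 0.5, from 0.171 over 0.262 to 0.333, with a mean depth of 34.1 reads. No homozygote was available there for comparison, and the remaining SNPs of the gene lay between 0.470 and 0.656. The highest was A3617951G, chosen after its values were seen, which ran from 0.55 over 0.643 to 0.723 in 9 fetuses. COL14A1 encodes a collagen that binds to the surface of fibrils. At A94137430G its 10 heterozygous fetuses ran from 0.53 over 0.608 to 0.702, all above 0.5, with a mean of 0.620 ± 0.0675 (SD, n = 10, adjusted p = 2.51e-04, F test, exact permutation p = 0.00195). Only 5 of the 26 COL14A1 SNPs showed AI, and COL16A1 had none.

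**Figure D2:**
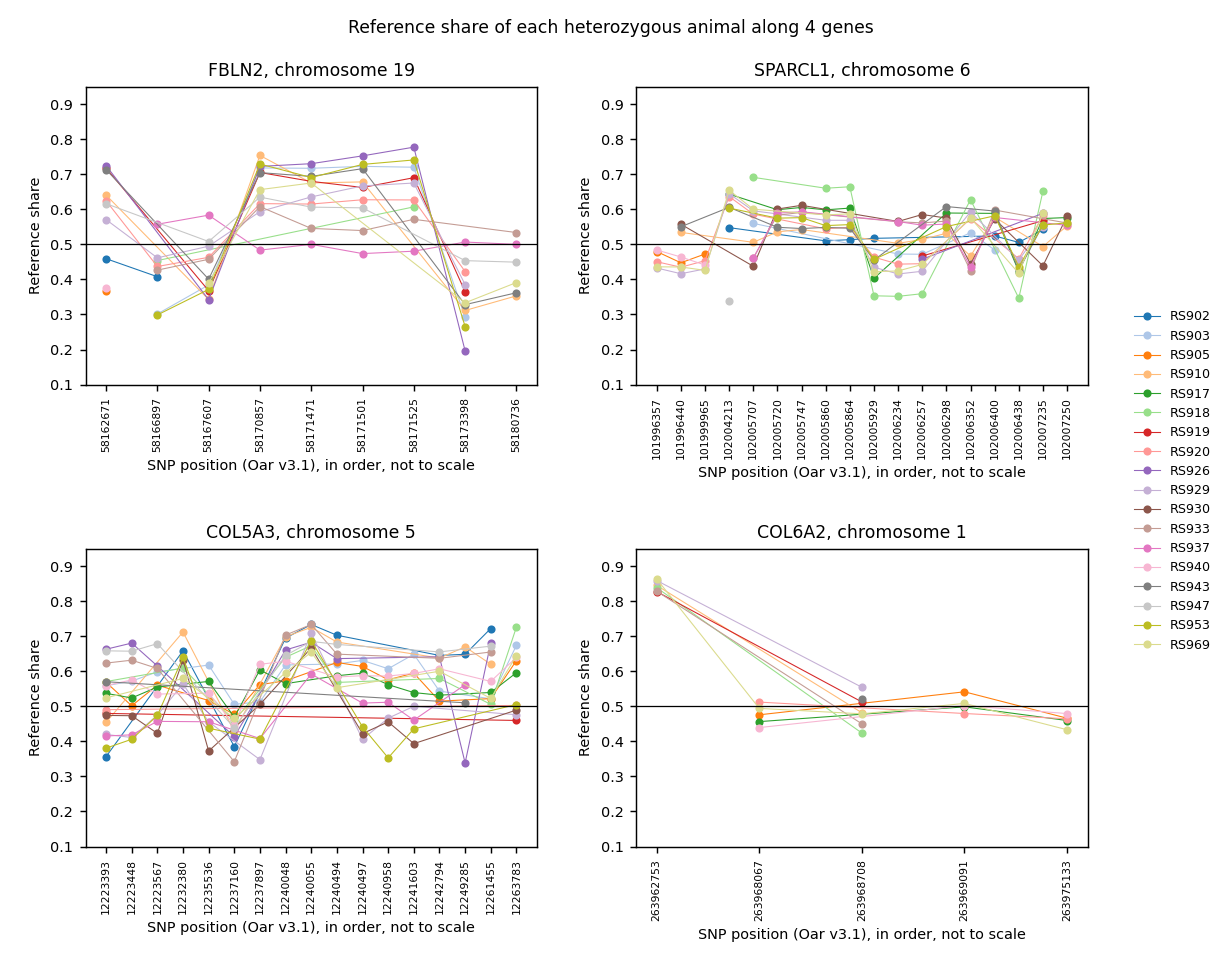
Reference share of each heterozygous fetus (vertical axis) at the SNPs of FBLN2, SPARCL1, COL5A3 and COL6A2 in genomic order (horizontal axis, not to scale). At FBLN2 the summed shares of the 9 SNPs run from 0.351 to 0.665, and at COL6A2 a single SNP stands at 0.841.

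Among the basement membrane genes, AI was called at 99 of 194 SNPs, 51.0% beside a background of 38%. The reference allele was higher at 86 of them, 86.9% beside 76.3% over the whole table. With animals as replicates 57 were called (background 24.5%), and the animals differed at 55 of 193, 28.5% beside 15.4%. Against the median share as null 76 were called, 39.2% beside 34.6% over the whole table, with 39 above it and 37 below. This class had the highest median depth, 235 reads per heterozygous animal. In the deepest quartile of all SNPs, from 123 reads, 59.5% showed AI and the animals differed at 29.1%. Of the 99 basement membrane SNPs with AI, 93 lay within 0.1 of an equal share. COL4A1 and COL4A2 encode the chains of the collagen type IV network and lie side by side on chromosome 10. COL4A1 had AI at 16 of 20 SNPs, and the summed shares of all 20 ran from 0.469 to 0.557. At G84473565A, a missense and splice region SNP of COL4A2, 15 heterozygous fetuses ran from 0.83 over 0.847 to 0.871 (adjusted p = 1.34e-26, F test). The 3 fetuses called homozygous carried 13.4% to 16.3% of the other allele, which is within the range of the heterozygotes. Another COL4A2 SNP, T84481348C, chosen after its values were seen, ran from 0.552 over 0.585 to 0.604 in 8 fetuses, with 0.0353% of the other allele in homozygotes.

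Laminins are trimers of an alpha, a beta and a gamma chain that anchor cells to the basement membrane. In LAMA3 at A33008219G, 5 of 6 heterozygous fetuses lay above 0.5, from 0.490 over 0.628 to 0.694 (mean 0.622 ± 0.0762, SD, adjusted p = 0.00523, F test, exact permutation p = 0.0625). LAMA2, the alpha chain of muscle and nerve, had 10 of 12 fetuses above 0.5 at C54793024T, from 0.415 over 0.602 to 0.759 (mean 0.590 ± 0.0983, SD, adjusted p = 0.0382, F test, exact permutation p = 0.0112). LAMC1 encodes the gamma chain of most laminins and had AI at 12 of 24 SNPs. At T62282367C in its 3' UTR, 6 of 7 fetuses lay above 0.5, from 0.308 over 0.650 to 0.683, with RS919 as the lowest (mean 0.60 ± 0.135, SD, adjusted p = 0.0401, F test, exact permutation p = 0.125, Pearson chi-square test between animals, adjusted p = 8.47e-18). The sign-flip test over animals did not pass 0.05 at this SNP. All 7 tested SNPs of LAMB2, a beta chain, showed AI on summed reads with the reference allele higher, 3 were called with animals as replicates, and the animals differed at 6. The lowest LAMB2 share, 0.516, lay below the median of all tested SNPs, 0.519. The most uneven, C50837620A, singled out after its values were seen, had 4 heterozygous fetuses at 0.904 to 0.910 and 14 homozygous fetuses with 6.68% to 9.18% of the other allele.

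The elastic fibre genes had AI at 21 of 60 SNPs, 35.0% beside a background of 38%, and 9 of these SNPs were in FBLN2. They lay in 6 of 14 genes, where the background was 58.5% of genes. Without the single SNP of MFAP1, which is counted here, it was 21 of 59 in 13 genes. FBLN2 encodes fibulin-2, a glycoprotein that joins elastic fibres and basement membranes. All 9 of its SNPs on chromosome 19 showed AI by both tests and differed between animals, 5 with the reference and 4 with the alternate allele higher. At T58170857C the 12 heterozygous fetuses ran from 0.484 over 0.680 to 0.754, and 11 of 12 lay above 0.5. The mean was 0.660 ± 0.0773 (SD, n = 12, adjusted p = 3.80e-08, F test, exact permutation p = 9.77e-04, Pearson chi-square test, adjusted p = 1.47e-15). At the missense SNP T58162671C, 7 of 10 fetuses lay above 0.5 and 3 below, from 0.368 over 0.620 to 0.725 (Pearson chi-square test, adjusted p = 6.28e-37). The mean there was 0.581 ± 0.136 (SD, n = 10, adjusted p = 0.0343, F test, exact permutation p = 0.0938). To see whether an animal was uneven whatever its phase, the share of the higher allele was taken over an animal's FBLN2 SNPs, a measure chosen after the values were seen. Its median per animal ran from 0.518 in RS937 over 0.666 to 0.730 in RS926 across 12 fetuses. It is above 0.5 by construction and rises as reads fall. FBLN2 had a median of 279.5 reads, and in the 9 other genes with a median of 200 to 350 reads the median animal ran from 0.521 in COL6A2 to 0.588 in COL5A3.

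ELN encodes elastin, and all 4 of its SNPs, annotated as intronic in a non-coding transcript, showed AI with the reference allele higher. At G33210385C on chromosome 24 all 18 fetuses were called heterozygous, from 0.844 over 0.878 to 0.900, with a mean of 0.878 ± 0.0149 (SD, n = 18, adjusted p = 1.49e-29, F test, permutation p = 2e-05, the smallest it can give). The neighbouring SNPs, described after their values were seen, show how the genotype groups lay. At A33210388G, 9 heterozygous fetuses ran from 0.906 over 0.915 to 0.923, and the 9 fetuses called homozygous carried 5.74% to 7.57% of the other allele, close beside them. At A33213424C the 2 heterozygous fetuses were at 0.597 and 0.603, while the 16 called homozygous carried 32.7% to 40.8% of the other allele, so the groups overlapped. At G33224021A they were far apart, with 0% of the other allele in 7 homozygotes, and there 11 heterozygous fetuses ran from 0.494 over 0.536 to 0.585 (adjusted p = 0.00179, F test).

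FBN1 encodes fibrillin-1, the core of the microfibril, and only 3 of its 17 SNPs showed AI. At C58862804T, 13 of 14 fetuses lay above 0.5, from 0.484 over 0.570 to 0.623 (mean 0.560 ± 0.0359, SD, adjusted p = 6.42e-05, F test, exact permutation p = 3.66e-04). FBLN1, the fibulin of elastic fibres and blood vessel walls, had 8 of 11 fetuses above 0.5 at C219971004T, from 0.400 over 0.566 to 0.665 (mean 0.551 ± 0.0871, SD, adjusted p = 0.0261, F test, exact permutation p = 0.0898). LOX encodes lysyl oxidase, which cross-links collagen and elastin. At T29249097C, 7 of 8 fetuses lay above 0.5, from 0.382 over 0.621 to 0.765. The mean of 0.602 ± 0.106 (SD, n = 8) missed the threshold with animals as replicates (adjusted p = 0.0544, F test). The exact permutation p of 0.0391 is not adjusted for the number of named SNPs. No AI was called in EFEMP1, EMILIN1, EMILIN2, FBLN5, FBLN7, LOXL2 or MFAP3, and MFAP5 had AI at its single SNP.

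The proteoglycans and glycoproteins had AI at 76 of 128 SNPs, 59.4% beside a background of 38%. With animals as replicates 57 were called (background 24.5%), and the animals differed at 51 of 126, 40.5% beside 15.4%. Against the median share as null 75 were called, 46 above it and 29 below. CLEC3B encodes tetranectin, a plasminogen binding protein, and had 1 SNP, the missense C54064225T on chromosome 19. All 18 fetuses were called heterozygous there and ran from 0.852 over 0.876 to 0.888. Their spread was that of counting error, with a dispersion of 1.10, and the mean was 0.872 ± 0.0122 (SD, n = 18, adjusted p = 7.90e-31, F test, permutation p = 2e-05, the smallest it can give). DCN encodes decorin, which binds collagen fibrils and limits their width. At C127427540T in its 3' UTR, 17 heterozygous fetuses ran from 0.826 over 0.843 to 0.873 (adjusted p = 7.97e-28, F test), and the only homozygote carried 12.3% of the other allele. At G127427554T nearby, chosen after its values were seen, 12 homozygotes carried 14.1% to 16% of the other allele. DCN SNPs with clean homozygotes lay between 0.517 and 0.540.

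Matricellular proteins bind the matrix and cells without forming fibres. SPARCL1 is of this kind, and all 18 of its SNPs on chromosome 6 showed AI, 11 with the reference and 7 with the alternate allele higher, and the animals differed at 15. At T102004213C, 7 of 8 fetuses lay above 0.5 and RS947 was the lowest, from 0.339 over 0.621 to 0.654 (mean 0.584 ± 0.105, SD, adjusted p = 0.0212, F test, exact permutation p = 0.0859). The mean depth there was 1790 reads, and the Pearson chi-square test between animals gave an adjusted p of 4.37e-129. The median share of the higher allele over an animal's SPARCL1 SNPs ran from 0.517 over 0.561 to 0.651 in RS918, across 15 fetuses. SPARC, its relative, had AI at 6 of 8 SNPs with summed shares of 0.49 to 0.570, and the animals differed at 7. At G60405839A, with a mean depth of 8067 reads, 6 fetuses ran from 0.457 over 0.522 to 0.535 (mean 0.511 ± 0.0290, SD, adjusted p = 0.217, F test, exact permutation p = 0.344, Pearson chi-square test, adjusted p = 2.76e-23).

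THBS4 encodes thrombospondin-4 and had AI at 9 of 15 SNPs, 4 with the reference and 5 with the alternate allele higher. At C10787823T all 8 heterozygous fetuses lay above 0.5, from 0.676 over 0.777 to 0.825, with a mean of 0.762 ± 0.0574 (SD, n = 8, adjusted p = 2.40e-07, F test, exact permutation p = 0.00781). Across its SNPs the median share of the higher allele reached 0.912 in RS910, while the median of 10 fetuses was 0.562. FN1 encodes fibronectin, which links cells to collagen, and only 5 of its 23 SNPs showed AI. At T216348667C its 6 fetuses ran from 0.506 over 0.624 to 0.680, all above 0.5 (mean 0.615 ± 0.0663, SD, adjusted p = 0.0116, F test, exact permutation p = 0.0312). TNXB, a tenascin that spaces collagen fibrils, had AI at 14 of 24 SNPs. At the missense SNP A26426336G, 15 heterozygous fetuses ran from 0.766 over 0.854 to 0.921 (adjusted p = 2.40e-13, F test), and homozygotes carried 3.37% of the other allele.

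The proteases and their inhibitors had AI at 33 of 85 SNPs, 38.8%, close to the background, with 32 of the 33 favouring the reference allele. Against the median share as null, 22 of 29 called SNPs lay above it. MMP2 encodes gelatinase A, which degrades collagen type IV, and 6 of its 8 SNPs showed AI with the reference allele higher. At C23247192G the 12 heterozygous fetuses ran from 0.519 over 0.595 to 0.627, all above 0.5, with a mean of 0.586 ± 0.0337 (SD, n = 12, adjusted p = 2.48e-08, F test, exact permutation p = 4.88e-04). TIMP2 encodes an inhibitor that also helps to activate MMP2. At A52502561C, 10 of 11 fetuses lay above 0.5, from 0.480 over 0.60 to 0.653 (mean 0.588 ± 0.0480, SD, adjusted p = 5.46e-05, F test, exact permutation p = 0.00195). MMP14 is the membrane protease that activates MMP2, and its 6 SNPs lie within a short stretch of the 3' UTR, from 21594785 to 21594804 on chromosome 7, each heterozygous in 15 or more fetuses. At C21594804T all 18 fetuses ran from 0.754 over 0.812 to 0.870 (adjusted p = 2.31e-19, F test). At A21594785G, chosen after its values were seen, 3 fetuses called homozygous carried 8.89% to 10.7% of the other allele.

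MMP16 is another membrane protease. At T87356688A in its 3' UTR the 7 heterozygous fetuses ran from 0.694 over 0.746 to 0.814, and the 11 homozygous fetuses carried 10.6% to 27.9% of the other allele, which overlaps them. The gene was also uneven where the genotypes were apart: at A87180936G, chosen after its values were seen, 6 fetuses ran from 0.610 over 0.714 to 0.802, all above 0.5, and homozygotes carried 0.169% of the other allele. ADAMTS16, a secreted protease with 14 SNPs, had AI at 3 of them, and none was called with animals as replicates. At A67798385T its 5 heterozygous fetuses ran from 0.49 over 0.589 to 0.729, and 4 of 5 lay above 0.5 (mean 0.604 ± 0.0897, SD, adjusted p = 0.0643, F test, exact permutation p = 0.125). The animals differed at 8 of its SNPs. No AI was called in ADAMTS1, ADAMTS7, ADAMTSL3 or MMP11.

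The collagen-modifying enzymes had AI at 3 of 20 SNPs, 15% beside a background of 38%. These SNPs lay in 2 of 7 genes, 28.6% beside 58.5%. The animals differed at 4 of the 20 SNPs, 20% beside 15.4%. Against the median share as null 7 of 20 were called, 35% beside 34.6% over the whole table, so the low count of this class depends on the null share. PLOD2 hydroxylates lysines of the collagen telopeptides, the sites of cross-links, and its single SNP was the most uneven. At A240502949C on chromosome 1 all 9 heterozygous fetuses lay above 0.5, from 0.576 over 0.696 to 0.754, with a mean of 0.681 ± 0.0606 (SD, n = 9, adjusted p = 9.88e-08, F test, exact permutation p = 0.00391). P4HA2 is a catalytic chain of prolyl hydroxylase, which stabilises the triple helix. At A19766146G, 8 of 9 fetuses lay above 0.5, from 0.489 over 0.582 to 0.667 (mean 0.581 ± 0.0534, SD, adjusted p = 0.0102, F test, exact permutation p = 0.00781). No AI was called in P4HA1, PCOLCE, PCOLCE2, PLOD1 or PLOD3.

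Of the pair matched by name, COL4A3BP had AI at 2 of 6 SNPs. At C6564377T its 9 heterozygous fetuses ran from 0.755 over 0.815 to 0.883, and homozygotes carried 6.20% to 10.4% of the other allele. The single SNP of MFAP1, A54389886G, showed no AI, with 10 fetuses from 0.284 over 0.528 to 0.652. The animals differed at this SNP (Pearson chi-square test, adjusted p = 0.0222).

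A list of 54 other genes of collagen folding, secretion, matrix binding and growth factor storage was looked up in the same way, and 33 had SNPs. AI was called at 94 of their 209 SNPs, 45.0% beside a background of 38%. The reference allele was higher at 80, 85.1% beside 76.3% over the whole table, and the alternate allele at 14. The SNPs with AI lay in 22 of the 33 genes, 66.7% beside 58.5%. The median depth of the 209 SNPs was 128 reads, against 65.0 at all tested SNPs. HSPG2, the basement membrane proteoglycan perlecan, held 60 of these SNPs and 36 of those with AI. The animals differed at 34 SNPs, 16.3%, near the background. BMP1, which trims the ends of procollagen, had AI at 4 of 5 SNPs, all 4 with the reference allele higher. The shares of all 5 ran from 0.468 to 0.626. LTBP4, which stores TGF-beta in the matrix, had AI at 13 of 19 SNPs, and the shares of all 19 ran from 0.460 to 0.892. SERPINH1, the collagen chaperone, had a share of 0.488 at its single SNP, with the alternate allele higher. No AI was called in DDR2, a collagen receptor, or in MIA3 and SEC23A, which carry procollagen out of the endoplasmic reticulum.

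**Figure D3:**
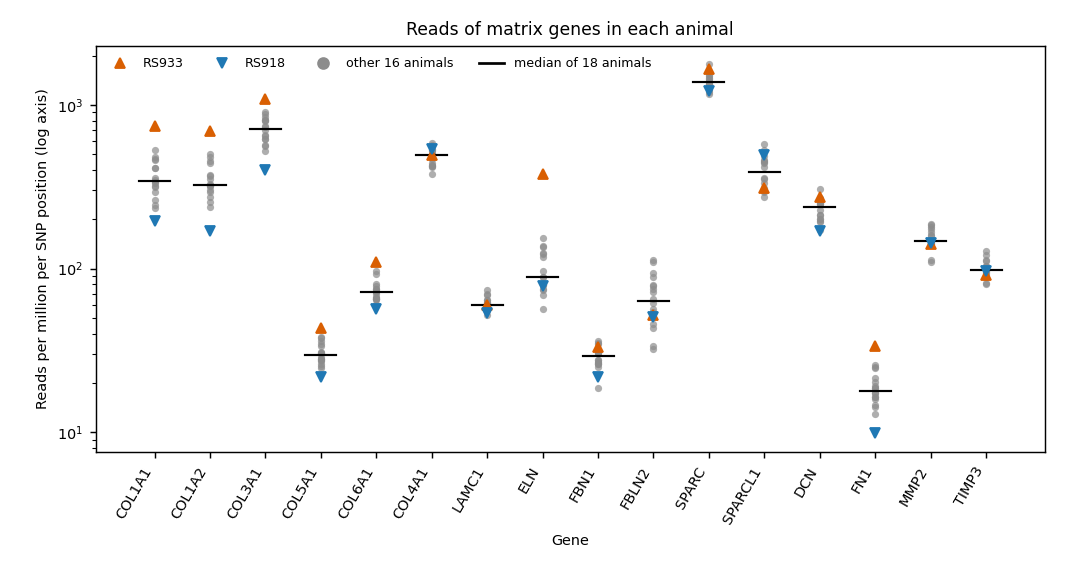
RPM per SNP position (vertical axis, log scale) of 16 matrix genes in each fetus, with RS933 as orange and RS918 as blue triangles, the other 16 fetuses in grey and the median as a bar. RS933 has 377 at ELN, where the median is 88.8.

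The level of the matrix genes was read from both alleles together. In each fetus the reads at matrix SNPs summed to between 59900 RPM in RS937 and 82652 RPM in RS933, with a median of 69883. In bulk RNA, fewer cells of a type and less RNA per cell cannot be told apart. Per SNP position SPARC had the highest level, a median of 1388 RPM, followed by COL3A1 with 716, COL4A1 with 495 and SPARCL1 with 388. The summed reads of the fibrillar collagens ran from 9403 RPM in RS918 over 15884 to 25224 in RS933, a ratio of 2.68 between the highest and the lowest fetus. The summed reads of the basement membrane genes ran from 19267 over 22084 to 25875, a ratio of 1.34. Gene by gene these ratios overlapped. They ran from 1.95 at COL5A2 to 4.04 at COL1A2 among the fibrillar collagens. Among the basement membrane genes they ran from 1.42 at LAMC1 to 2.35 at LAMA3. The difference between the classes was not tested. COL1A1 ran from 195 over 343 to 742 RPM per position, and ELN from 56.6 in RS903 over 88.8 to 377 in RS933.

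The extremes gathered in a few animals. RS933 had the highest level of 23 of the 77 genes, among them 4 of the 6 fibrillar collagens. RS918, labelled male, had the lowest level of 28, among them 5 of the 6. RS929, whose X heterozygosity was that of the males, had the highest level of 14 genes, and RS905 and RS937 the lowest of 9 each. Extremes were not counted over all genes of the table, so whether these counts are particular to matrix genes was not tested. Some marker lists were low or high in RS933 and RS918 and others were not. RS918 had the lowest summed level of the adipocyte markers (2 of 7 with SNPs, ADIPOQ the most abundant), at 2430 RPM per position against a median of 3089. It was also lowest for the immune markers (3 of 6, ITGAL the most abundant), at 14.5 against 27.0, and for HBBB, the only blood marker of 4 with SNPs, at 13.7 against 97.1. On the brown fat list RS918 stood at 2901 against a median of 2652, on the smooth muscle and pericyte list at 132 against 128, and on the endothelial list at 242 against 251. RS933 stood at 2652, 151 and 248 on these lists. RS933 had 64.2 of DES, the only skeletal muscle marker of 8 with SNPs, against a median of 21.3, while RS920 had 65.3 and RS918 had 6.39. RS933 had 34.9 on the immune list. On the fibroblast and stromal list (4 of 5), RS918 was lowest at 227 and RS933 stood at 342, against a median of 294. DCN, the most abundant gene of this list, is itself a matrix gene. Without DCN, a step chosen after the values were seen, RS918 stood at 58.4 and RS933 at 69.8, with a median of 63.8, and the lowest was RS905 at 48.6. The part of cell composition in these levels was not tested.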

How the data were processed

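PRAT of 18 fetuses was sequenced by RNA-Seq. According to the submitters' processing notes, reads were aligned to Oar v3.1 with STAR and SNPs and genotypes were called from the same reads with GATK 3.4-46. The authors deposited raw read counts, split by reference and alternate allele, for every SNP and animal, with no normalization. The authors also deposited other columns, which hold genotype calls, SNP annotation, a chi-square statistic, a p-value, the higher allele and its share. The genotype calls and the annotation were used and the authors' statistics were not. The column labelled PS910 was taken as fetus RS910.

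Reads of animals called heterozygous were tested at each of 24244 SNPs against a share of 0.5 with the Poisson likelihood ratio test (chi-square, 1 degree of freedom). The moderated quasi-binomial F test divided this statistic by the Pearson dispersion between animals, moderated with squeezeVar of limma and kept at 1 or more. All adjusted p-values are Benjamini-Hochberg values over every SNP tested in the table. Differences between animals were tested with the Pearson chi-square test. At named SNPs a two-sided sign-flip permutation test over animals with at least 10 reads was added, unadjusted, enumerated exactly where the flips number no more than 100000 and otherwise sampled 100000 times. Named SNPs were mostly chosen for their departure in the same reads, so these p-values are no independent evidence of it. Mean, lowest, median and highest shares are over the same animals. Ranks used 20 rounds of sampling to 50 reads. Percentages of the other allele in homozygotes are means over animals with at least 20 reads. The share of the higher allele used fetuses with at least 3 SNPs of 50 reads or more in a gene. Analyses used Python 3.11.15, numpy 2.4.6, pandas 2.3.3, scipy 1.17.1, matplotlib 3.10.9, R 4.3.3 and limma 3.58.1, and were tested on simulated data.

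The members, the role classes and the lists of genes and markers were chosen with earlier results of these data known. A gene was represented by its SNP with the largest statistic. Named were, in each class, the 3 genes with the largest departure among such SNPs called by both tests and heterozygous in 5 to 14 animals, and the gene with the most SNPs. Also named were genes with a called SNP heterozygous in 15 or more animals and a share under 0.2 or over 0.8, up to 6 genes with the largest dispersion around 0.5, COL1A1, COL1A2, COL3A1, ELN, FN1, FBN1 and LOX, and the genes matched by name only. This gave 38 SNPs in 35 genes. Alternatives were an unadjusted threshold, animals as replicates, another null share, other read minimums, removal of groups of SNPs, other sampling depths and seeds, and leaving out each animal.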

Additional observations from a re-analysis of the deposited data

Results flagged for a closer look

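In groups of 4 to 10 heterozygous fetuses, Dixon's criterion singled out an animal far from the others at 3 of the 23 named SNPs tested. Chance gives about 1 in 20 such groups, but the SNPs of LAMC1 and SPARCL1 were named in part for a wide spread between animals, so the count is not to be read against that share. The animals were RS919 with a reference share of 0.308 at position 62282367 of LAMC1, RS947 with 0.339 at 102004213 of SPARCL1 and RS902 with 0.284 at 54389886 of MFAP1.

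Reads of the other allele in animals called homozygous lie outside the comparisons of heterozygotes. At 5 named SNPs they held a mean of at least 5% of the reads. The means were 7.07% at 1404196 of COL5A1, 20.3% at 87356688 of MMP16, 14.4% at 84473565 of COL4A2, 12.3% at 127427540 of DCN and 8.43% at 6564377 of COL4A3BP.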

How the results depend on the processing

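The number of matrix SNPs with AI was 319 and ran from 213, with animals as replicates, to 366, without adjustment of the p-values. It was 256 under a minimum of 30 reads for both alleles in 5 heterozygotes. The number of genes ran from 46 to 63. The percentage with the reference allele higher was 83.7%. With the null share at the median of all tested SNPs, 0.519, it was 59.5% of 274 SNPs, since that null lies above an equal share. The median level of the matrix genes was 69883 RPM, and 58171 RPM without SPARC, the gene with the most reads. Leaving out each animal in turn gave 309 to 320 SNPs with AI, 56 to 59 genes, 82.2% to 84.5% with the reference allele higher, 199 to 213 SNPs called with animals as replicates and 169 to 187 that differed between animals. Without SNPs heterozygous in 15 or more animals there were 277 SNPs with AI, 174 with animals as replicates and 170 that differed. The counts with animals as replicates, here and on leaving out each animal, were not planned. Without SNPs whose homozygotes carried at least 5% of the other allele, an alternative chosen after seeing the data, there were 298, 193 and 183. Without COL4A3BP and MFAP1, also chosen after seeing the data, 317 SNPs showed AI. The genes among the first 1500 were 28, and 24 to 32 with other sampling depths or another seed. At the 38 named SNPs the alternatives were the share of the summed reads and a minimum of 20 reads per animal. None moved a value by more than the SD between animals, and the read minimum changed it only at COL6A3, LAMA2 and LOX. These alternatives use nearly the same reads, so little can be read from the absence of larger moves, and other null shares or leaving out animals were not run at these SNPs.

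The fetuses share a sire, so they are not unrelated animals. Genotypes were called from the RNA reads that were also counted, and mapping was not repeated. Phase was not known, so shares of different SNPs in a gene were not joined into haplotypes. At SNPs with few reads, small departures were not detectable.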
